A study of Mus musculus with 17 samples.

Results

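The 10 genes described here encode the apical surface of the podocyte and the proteins that tie it to actin. They were chosen by name as podocalyxin (Podxl), podoplanin (Pdpn), the receptor phosphatase Ptpro, the chloride intracellular channel proteins Clic5 and Clic4, the ezrin family (Ezr, Msn and Rdx) and the ezrin-binding adaptors Slc9a3r1 and Slc9a3r2. All 10 were among the 56748 genes of the count table, and 9 of them were among the 15196 genes with enough counts to test. Ptpro, with 1 count over all 17 libraries, was not.

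The cells were E11, a mouse podocyte line, grown on the silicone polydimethylsiloxane (PDMS) in all groups, and poly(A) RNA was sequenced from whole cultures. Of the libraries, 6 came from HF surfaces, a high fractal relief modelled on a tracing of healthy glomerular histology. Another 6 came from RT surfaces, whose round relief is not fractal, and 5 from NT surfaces, which are flat. The labels do not say whether libraries of a group came from separate cultures, so the p-values cover only how far these libraries spread, which may be technical in origin, and all libraries come from 1 line.

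Podocytes cover the glomerular capillaries with interdigitating foot processes, and their apical membrane carries a thick coat of negatively charged sialoglycoproteins. Podocalyxin is the main one, and it is held to the actin cortex through the NHERF adaptors and ezrin. Loss of that charge or of the ezrin link is known to go with flattening of the foot processes.

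Libraries held 14913649 to 24072966 counts assigned to genes. Of the 12 podocyte markers listed for the check of the label, 10 were tested, and Tcf21 was at 0 in every library. Nphs1, which encodes nephrin, averaged 5.03, 4.66 and 3.96 counts per 1000000 of the scaled library total (CPM) on HF, RT and NT surfaces. The transcription factor gene Wt1 averaged 103, 96.9 and 115 CPM. The kidney tubule gene Cdh16 averaged 976, 976 and 977 CPM, but 5 of the 8 distal tubule and collecting duct markers averaged under 1 CPM, with Aqp2 at 0. Of the 8 proximal tubule markers, 5 also averaged under 1 CPM, with Slc34a1 at 0. In that list Lrp2 averaged 411, 400 and 382 CPM and Aqp1 257, 246 and 204 CPM on HF, RT and NT surfaces. The 8 endothelial markers summed to 0.617 to 1.93 CPM per library with Kdr and Lyve1 at 0, and the 6 leukocyte markers summed to 1.05 to 2.93 CPM with Adgre1, Itgam and Cd3e at 0.

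The RefSeq table of mouse promoters (build GRCm38.p6) held 11 promoters for 9 of the 10 genes. The 250 bases before the annotated start are shown for the 3 genes that passed the test in at least 1 comparison, since these are the genes the results turn on. Capitals mark letters of a searched motif on either strand. The Pdpn sequence is chr4:143299565-143299814 (minus strand), the Clic5 sequence is chr17:44188322-44188571 (plus strand) and the Ezr sequence is chr17:6782781-6783030 (minus strand).
Pdpn: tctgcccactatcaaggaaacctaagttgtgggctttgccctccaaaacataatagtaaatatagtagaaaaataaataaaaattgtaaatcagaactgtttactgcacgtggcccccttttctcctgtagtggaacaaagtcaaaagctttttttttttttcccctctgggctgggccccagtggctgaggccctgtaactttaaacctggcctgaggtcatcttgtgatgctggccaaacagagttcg
Clic5: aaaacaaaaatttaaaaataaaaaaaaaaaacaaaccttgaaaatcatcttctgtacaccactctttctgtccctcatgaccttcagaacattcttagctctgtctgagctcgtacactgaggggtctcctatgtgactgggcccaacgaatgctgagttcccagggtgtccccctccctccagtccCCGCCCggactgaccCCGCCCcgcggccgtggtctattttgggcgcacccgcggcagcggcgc
Ezr: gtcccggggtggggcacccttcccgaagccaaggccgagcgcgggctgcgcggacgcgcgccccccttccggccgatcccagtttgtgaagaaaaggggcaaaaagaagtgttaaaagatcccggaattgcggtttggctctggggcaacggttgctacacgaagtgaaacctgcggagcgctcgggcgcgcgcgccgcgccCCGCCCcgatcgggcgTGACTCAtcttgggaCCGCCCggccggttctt

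The Ezr window held 1 match to the AP-1 letters TGANTCA, beginning 32 bases before the start, and 2 matches to the Sp1 letters GGGCGG. The Clic5 window held 2 matches to GGGCGG, and the Pdpn window held no match to any motif searched. Both strands were searched, and in the 3 windows shown no base was shared by matches to different motifs. Over the 11 promoters of the set, GGGCGG was present in 6, TGANTCA in 2, the WT1 and EGR letters GCGNGGGNG in 2, and the TEAD letters CATTCC and the CArG box in 0. Among all 32851 mouse promoters of the same length, GGGCGG was present in 32.7%, TGANTCA in 6.75%, GCGNGGGNG in 10.5%, CATTCC in 12.6% and the CArG box in 1.47%. A match describes the letters of these windows only.

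Per kilobase of exons, the scale on which levels can be compared between genes, the 9 tested genes spanned a wide range. Msn, which encodes moesin, stood first with 181 ± 6.34, 190 ± 2.94 and 189 ± 9.73 CPM per kilobase on HF, RT and NT surfaces (SD, n = 6, 6 and 5). Ezr followed with 128, 133 and 122 CPM per kilobase, and Pdpn with 84.4, 88.4 and 96.5. Rdx (46.0, 46.3 and 49.2) and Slc9a3r1 (43.0, 41.5 and 39.7) came next, and their ranges overlapped among the HF libraries but not among the RT or the NT libraries. Clic4 (29.8, 31.0 and 29.1) and Podxl (23.0, 26.0 and 23.8) did not overlap within a group, although they did over all 17 libraries. Slc9a3r2 had 13.1, 13.3 and 13.4 CPM per kilobase and Clic5 had 2.34, 1.96 and 2.70. With the length of the longest transcript in place of all exons, Clic4 averaged 47.9 CPM per kilobase over the 17 libraries, against 41.5 for Slc9a3r1, which it then exceeded. On that scale Clic4 also exceeded Rdx on RT surfaces (49.4 and 49.0 CPM per kilobase) but not on HF or NT surfaces, Msn averaged 307 and Clic5 averaged 3.47 CPM per kilobase.

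**Figure D1:**
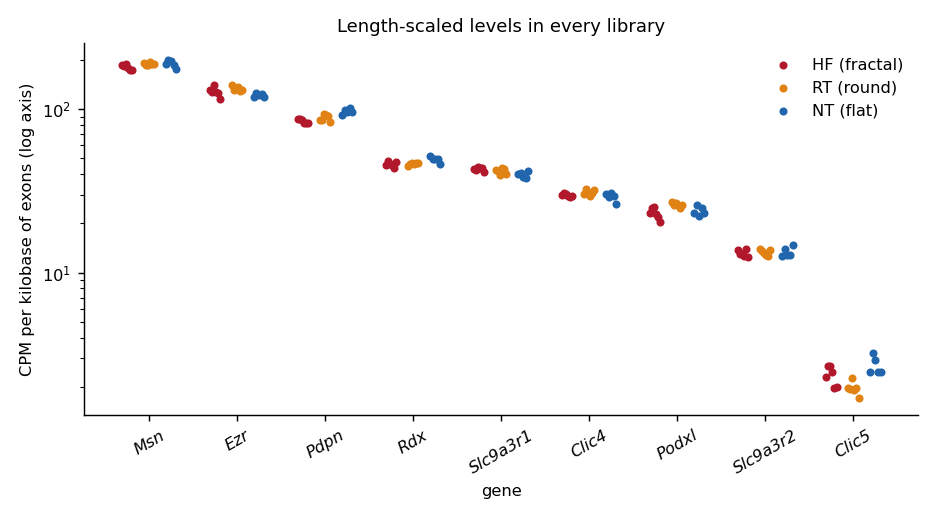
Level of each tested gene in every library, in CPM per kilobase of exons on a log axis, with HF, RT and NT libraries from left to right within a gene. On this scale, which counts the length of all exons, the order of the 9 genes by mean was the same in the 3 groups, from Msn at 181 to 190 down to Clic5 at 1.96 to 2.70 CPM per kilobase.

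On HF surfaces Pdpn was lower than on NT surfaces, and the other 8 tested genes did not pass the test. This is 1 of 9 genes with an adjusted p under 0.05, by edgeR's quasi-likelihood test with Benjamini-Hochberg adjustment over all genes tested, where 2.33% of all genes were called. An unadjusted p under 0.05 was seen in 4 of the 9, against 14.2% of all genes. On RT surfaces Ezr was higher than on NT surfaces and Pdpn and Clic5 were lower, which is 3 of 9 genes where 3.97% of all genes were called. Here 6 of the 9 had an unadjusted p under 0.05, against 17.1% of all genes. Between HF and RT surfaces edgeR called 0 of the 9 genes, where 0.211% of all genes were called. In that comparison 3 of the 9 (Podxl, Clic5 and Pdpn) had an unadjusted p under 0.05, against 8.00% of all genes, DESeq2 called 1 (Podxl) and limma voom called 0, against 0.553% and 0.217% of all genes. The 2 comparisons with NT share the same 5 NT libraries, and HF against RT shares its libraries with both.

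The median size of the log2 fold change over the 9 genes was 0.07 for HF over NT, 0.06 for HF over RT and 0.09 for RT over NT. The same median over all genes tested was 0.07, 0.06 and 0.07. In whole cultures, fewer cells of a type and less RNA per cell cannot be told apart.

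**Figure D2:**
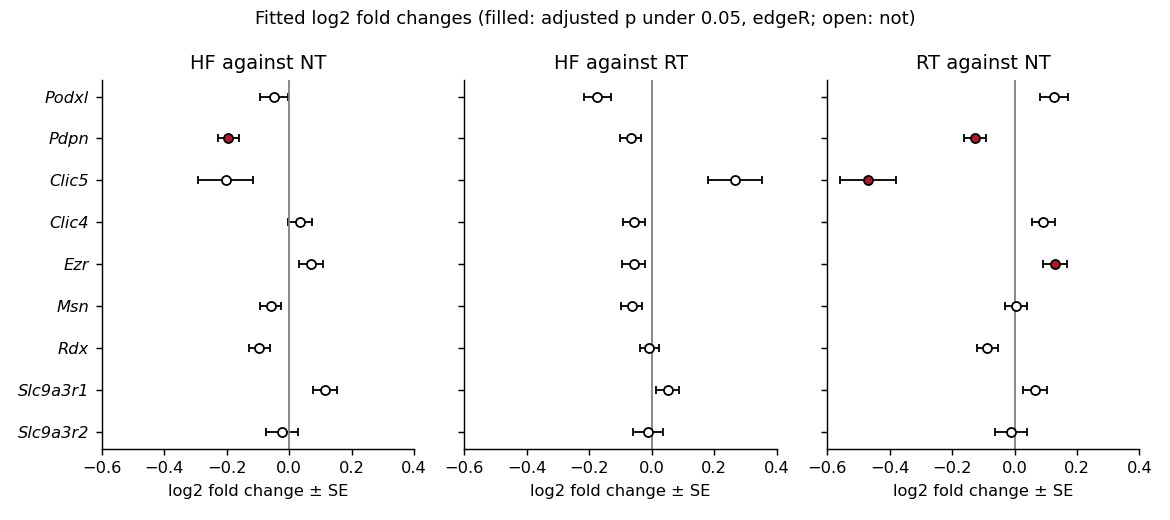
Fitted log2 fold change with its standard error for the 9 tested genes in the 3 comparisons, where values above 0 mean higher in the group named first. Filled points passed the adjusted p of 0.05: Pdpn at -0.19 for HF against NT, and Pdpn at -0.13, Clic5 at -0.47 and Ezr at 0.13 for RT against NT.

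Among the surface glycoproteins, Podxl (ENSMUSG00000025608, chromosome 6) encodes podocalyxin, the sialomucin whose charge keeps neighbouring foot processes apart. It ran from 112 to 138 CPM (median 126) in the HF libraries, from 136 to 148 CPM (median 142) in the RT libraries, and at 127, 142, 121, 136 and 128 CPM in the NT libraries. The RT libraries were the highest as a group, and 5 of 6 HF libraries lay below every RT library, while HF and NT libraries overlapped. Podxl averaged 126 ± 9.80 CPM on HF and 143 ± 4.16 CPM on RT surfaces (SD, n = 6 each). The log2 fold change of -0.17 ± 0.04 (SE) did not pass the test (edgeR adjusted p = 0.0807, unadjusted p = 0.000268). It passed with DESeq2 (adjusted p = 0.0402), when the fit held just those 2 groups (edgeR adjusted p = 0.0311), with no filter on low counts (edgeR adjusted p = 0.00160) and without the library HF 3 (edgeR adjusted p = 0.0102). It did not pass with limma voom (adjusted p = 0.104) or with libraries numbered 1 to 5 only (edgeR adjusted p = 0.359). Nor did it pass in 16 of the 17 fits that left out 1 library, where the edgeR adjusted p reached 0.236. HF against NT (126 and 131 CPM) gave -0.05 ± 0.04 with an adjusted p of 0.695 by edgeR. RT against NT (143 and 131 CPM) gave 0.13 ± 0.04 with an adjusted p of 0.119 by edgeR, which was 0.0468 without the library NT 2 and 0.0432 with no filter on low counts. In 16 of the 17 fits with 1 library left out it did not pass, with edgeR adjusted p-values up to 0.303.

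Pdpn (ENSMUSG00000028583, chromosome 4) encodes podoplanin, a small mucin-like glycoprotein whose short tail binds ezrin and moesin, and whose outer part is the ligand of CLEC-2 on platelets. Its level was 148 CPM at the lowest, 154 at the median and 158 at the highest HF library, 151, 160 and 169 CPM in the RT libraries in the same order, and 167, 178, 173, 183 and 174 CPM in the 5 NT libraries. All 6 HF libraries and 5 of 6 RT libraries lay below every NT library, and the HF and RT libraries overlapped. Pdpn fell by 12.6% on HF surfaces relative to NT (153 ± 4.51 and 175 ± 5.97 CPM, SD, n = 6 and 5), with a log2 fold change of -0.19 ± 0.03 (SE) and an edgeR adjusted p of 0.000972. This call held in all 26 alternative settings. In 0.934% of all genes every HF library lay below every NT library.

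Pdpn also fell on RT surfaces relative to NT, by 8.40% (161 ± 7.02 and 175 ± 5.97 CPM), with a log2 fold change of -0.13 ± 0.03 and an edgeR adjusted p of 0.0309. The call ended with some single libraries left out: without NT 2, NT 3, NT 4, RT 1, RT 2 or RT 6 the edgeR adjusted p was 0.0559, 0.0529, 0.0976, 0.0703, 0.0708 and 0.0891. A fit of RT and NT alone gave 0.0580. In these settings the log2 fold change stayed between -0.13 and -0.11. HF against RT gave -0.07 ± 0.03 and an edgeR adjusted p of 0.624, so the values on the 2 relief surfaces were not separated by the test.

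Ptpro (ENSMUSG00000030223, chromosome 6), which encodes the receptor-type tyrosine phosphatase of the podocyte's apical membrane, had 0 counts in 16 of 17 libraries and 1 count in the library NT 5. A count of 0 allows a level of up to 3 counts, which is 0.125 to 0.201 CPM depending on the library and covers counting error only. No difference between surfaces was detectable at this depth.

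**Figure D3:**
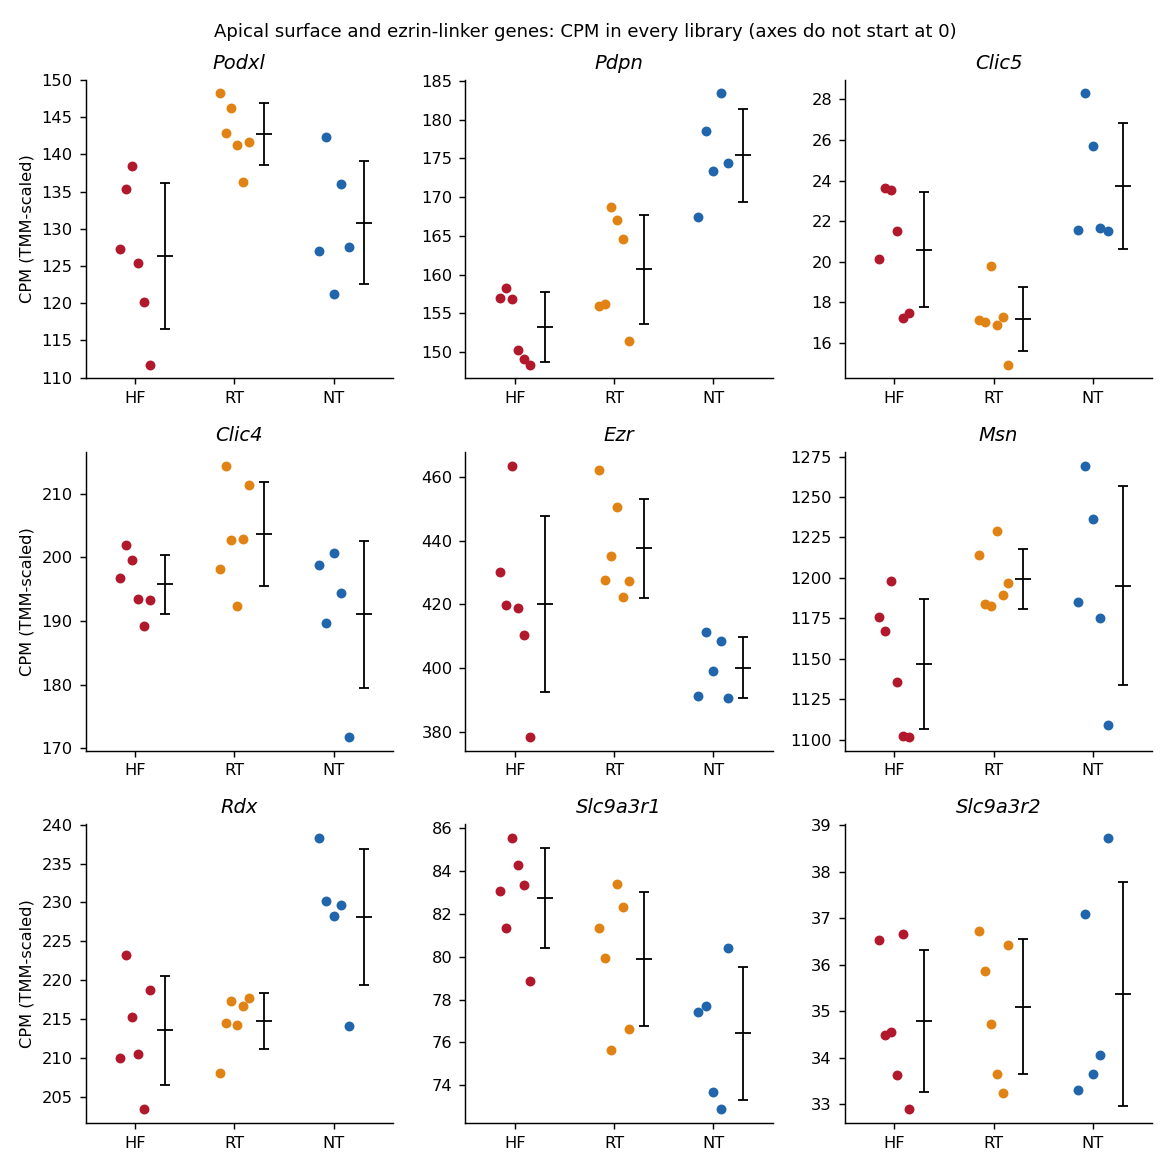
CPM of each tested gene in every library (points) for HF, RT and NT, with the mean and SD to the right of each group; each panel has its own axis, which does not start at 0. All 6 HF points of Pdpn lie below the 5 NT points, all 6 RT points of Clic5 lie below and all 6 RT points of Ezr lie above the NT points, and 5 of 6 HF points of Podxl lie below the RT points.

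Of the chloride intracellular channel proteins, Clic5 (ENSMUSG00000023959, chromosome 17) encodes the member that is enriched in glomeruli, where it sits with ezrin and podocalyxin at the apical membrane. It ran from 17.2 to 23.6 CPM (median 20.8) in the HF libraries, from 14.9 to 19.8 CPM (median 17.1) in the RT libraries, and at 21.6, 28.3, 25.7, 21.6 and 21.5 CPM in the NT libraries. All 6 RT libraries lay below every NT library, with the HF libraries between them and overlapping both. Clic5 fell by 27.7% on RT surfaces relative to NT (17.2 ± 1.56 and 23.7 ± 3.11 CPM, SD, n = 6 and 5), with a log2 fold change of -0.47 ± 0.09 (SE) and an edgeR adjusted p of 0.00167.

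The Clic5 call for RT against NT held in all 26 alternative settings, with log2 fold changes from -0.51 to -0.40 when 1 library was left out. It was the largest of the fitted changes among the 9 genes, and Clic5 was also the gene with the fewest counts, 268 to 479 per library. In 1.22% of all genes every RT library lay below every NT library. HF against NT gave -0.20 ± 0.09 with an edgeR adjusted p of 0.271, and HF against RT gave 0.27 ± 0.09 with an edgeR adjusted p of 0.279. The second of these was 0.0311 with no filter on low counts.

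Clic4 (ENSMUSG00000037242, chromosome 4), a widely expressed relative that moves between the cytosol and membranes, ran from 189 to 202 CPM (median 195) on HF surfaces and from 192 to 214 CPM (median 203) on RT surfaces. The NT libraries had 199, 190, 201, 194 and 172 CPM, with NT 5 the lowest of the 17. The groups overlapped, and no comparison passed: the log2 fold changes were 0.04 ± 0.04 for HF over NT, -0.06 ± 0.04 for HF over RT and 0.09 ± 0.04 for RT over NT (edgeR adjusted p = 0.741, 0.742 and 0.174). Within a library, Clic4 per kilobase was 12.9 ± 1.56 times Clic5 on HF, 16.0 ± 1.77 times on RT and 10.9 ± 1.35 times on NT surfaces, and the RT and NT ranges of this ratio did not overlap. Those of Clic5 alone did not overlap either, and the share of all gene pairs that separate in this way was not computed.

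The ezrin family encodes 3 closely related linkers, each with a FERM domain that binds membrane proteins and a tail that binds actin. Ezr (ENSMUSG00000052397, chromosome 17), the member that carries podocalyxin in podocytes, ran from 378 to 464 CPM (median 419) in the HF libraries and from 422 to 462 CPM (median 432) in the RT libraries. The NT libraries had 391, 411, 399, 408 and 391 CPM. Every RT library lay above every NT library, while the HF libraries were the most spread and held both the lowest and the highest value of all 17.

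Ezr rose by 9.33% on RT surfaces relative to NT (438 ± 15.6 and 400 ± 9.55 CPM, SD, n = 6 and 5), with a log2 fold change of 0.13 ± 0.04 (SE) and an edgeR adjusted p of 0.0463, close to the threshold. The call held in 4 of the 17 fits that left out 1 library, where the edgeR adjusted p ran from 0.0243 to 0.123 and the log2 fold change from 0.11 to 0.14. The 13 libraries whose absence ended it were NT 1, NT 3, NT 4 and NT 5, RT 1, RT 2, RT 3, RT 4 and RT 6, and HF 1, HF 2, HF 4 and HF 5, with edgeR adjusted p-values of 0.0840, 0.0949, 0.0660 and 0.0561, then 0.123, 0.0609, 0.0757, 0.110 and 0.0591, then 0.0562, 0.0560, 0.0582 and 0.0563. With limma voom the adjusted p was 0.0514. In 2.18% of all genes every RT library lay above every NT library. HF against NT gave 0.07 ± 0.04 (edgeR adjusted p = 0.408) and HF against RT gave -0.06 ± 0.04 (edgeR adjusted p = 0.743).

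Msn (ENSMUSG00000031207, chromosome X), which encodes moesin, ran from 1102 to 1198 CPM (median 1151) on HF surfaces and from 1183 to 1229 CPM (median 1193) on RT surfaces. The NT libraries had 1185, 1269, 1237, 1175 and 1109 CPM and spanned nearly the whole range of the other groups. Its log2 fold changes were -0.06 ± 0.03 for HF over NT, -0.06 ± 0.03 for HF over RT and 0.01 ± 0.03 for RT over NT (edgeR adjusted p = 0.467, 0.654 and 0.969). A small RNA gene, Gm24718, lies over 2.15% of the Msn exons on the opposite strand, and reads of the 2 cannot be told apart in these libraries.

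Rdx (ENSMUSG00000032050, chromosome 9), which encodes radixin, ran from 203 to 223 CPM (median 213) on HF surfaces and from 208 to 218 CPM (median 216) on RT surfaces. The NT libraries had 238, 230, 228, 230 and 214 CPM. In all, 4 of the 5 NT libraries lay above all HF and RT libraries, and NT 5 lay among them. The log2 fold change was -0.09 ± 0.03 for HF against NT and -0.09 ± 0.03 for RT against NT (edgeR adjusted p = 0.124 and 0.140). Without NT 5 the values were -0.12 and -0.11, and both passed (edgeR adjusted p = 0.0180 and 0.0226). HF against RT gave -0.01 ± 0.03 (edgeR adjusted p = 0.981).

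Set against each other within a library, the 3 linkers kept one order everywhere. Per kilobase, moesin made up 51.1 ± 0.509% of the family on HF, 51.4 ± 0.355% on RT and 52.5 ± 0.920% on NT surfaces. Ezrin made up 35.9 ± 1.07%, 36.1 ± 0.683% and 33.8 ± 0.827%, and radixin 13.0 ± 0.623%, 12.6 ± 0.399% and 13.7 ± 0.435% on the same surfaces (SD, n = 6, 6 and 5). With the length of the longest transcript, chosen after seeing the data, moesin made up 62.2%, 62.5% and 63.5%, ezrin 27.6%, 27.7% and 25.8%, and radixin 10.2%, 9.82% and 10.6% on HF, RT and NT surfaces, so the shares depend on the length used while their order does not. The log2 ratio of Rdx to Ezr was -1.52 ± 0.07 on RT and -1.31 ± 0.06 on NT surfaces, and that of Msn to Ezr was 0.51 ± 0.04 and 0.63 ± 0.06, with no overlap between RT and NT libraries in either. The HF libraries overlapped both other groups, at -1.47 ± 0.11 for Rdx to Ezr and 0.51 ± 0.06 for Msn to Ezr. These ratios need no scaling between libraries and were not tested. Both contain Ezr, whose own RT libraries all lay above the NT libraries. The share of all gene pairs whose ratio separates RT from NT was not computed.

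**Figure D4:**
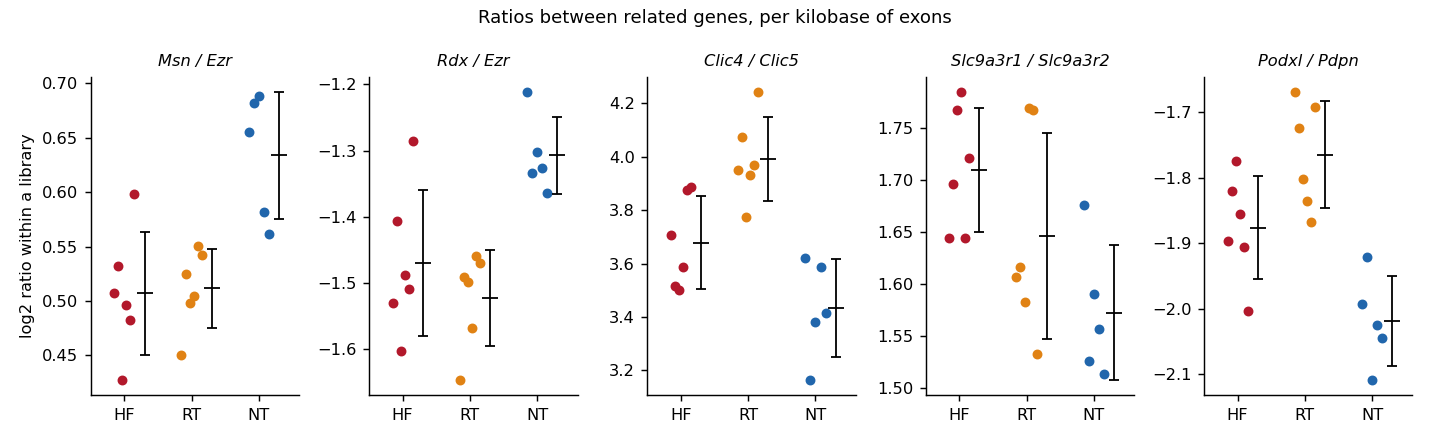
Log2 ratio between related genes within each library, per kilobase of exons, for HF, RT and NT (points), with the mean and SD to the right of each group. RT points lie below all NT points for Msn to Ezr and Rdx to Ezr and above all NT points for Clic4 to Clic5 and Podxl to Pdpn, and the Slc9a3r1 to Slc9a3r2 points overlap. How often ratios of other gene pairs separate in this way was not computed.

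The ratio of Podxl to Pdpn, the main sialomucin against podoplanin, was 0.273 ± 0.0148 on HF, 0.295 ± 0.0166 on RT and 0.247 ± 0.0119 on NT surfaces (per kilobase, SD, n = 6, 6 and 5). RT libraries had a higher ratio than every NT library, and HF libraries overlapped both. Pdpn alone was also called lower on RT than on NT surfaces, with 5 of 6 RT libraries below every NT library. This ratio was not tested, and the share of all gene pairs that separate in this way was not computed.

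The adaptor genes passed the test in no comparison. Slc9a3r1 (ENSMUSG00000020733, chromosome 11) encodes NHERF1, a PDZ scaffold that binds the FERM domain of ezrin. It ran from 78.9 to 85.6 CPM (median 83.2) on HF surfaces, from 75.7 to 83.4 CPM (median 80.7) on RT surfaces, and at 77.4, 77.7, 73.7, 72.9 and 80.4 CPM on NT surfaces. Of the HF libraries, 5 of 6 lay above every NT library. HF against NT gave 0.12 ± 0.04 (edgeR adjusted p = 0.113), which was 0.0408 without NT 5. HF over RT gave 0.05 ± 0.04 (edgeR adjusted p = 0.794) and RT over NT 0.06 ± 0.04 (edgeR adjusted p = 0.416).

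Slc9a3r2 (ENSMUSG00000002504, chromosome 17) encodes NHERF2, the scaffold that bridges podocalyxin to ezrin in podocytes. It averaged 34.8 ± 1.53, 35.1 ± 1.46 and 35.4 ± 2.41 CPM on HF, RT and NT surfaces (SD, n = 6, 6 and 5), and the 3 groups overlapped throughout. Its log2 fold changes were -0.02 ± 0.05 for HF over NT, -0.01 ± 0.05 for HF over RT and -0.01 ± 0.05 for RT over NT (edgeR adjusted p = 0.896, 0.981 and 0.948). Per kilobase, Slc9a3r1 was 3.27 ± 0.135, 3.14 ± 0.218 and 2.98 ± 0.137 times Slc9a3r2 on HF, RT and NT surfaces.

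**Figure D5:**
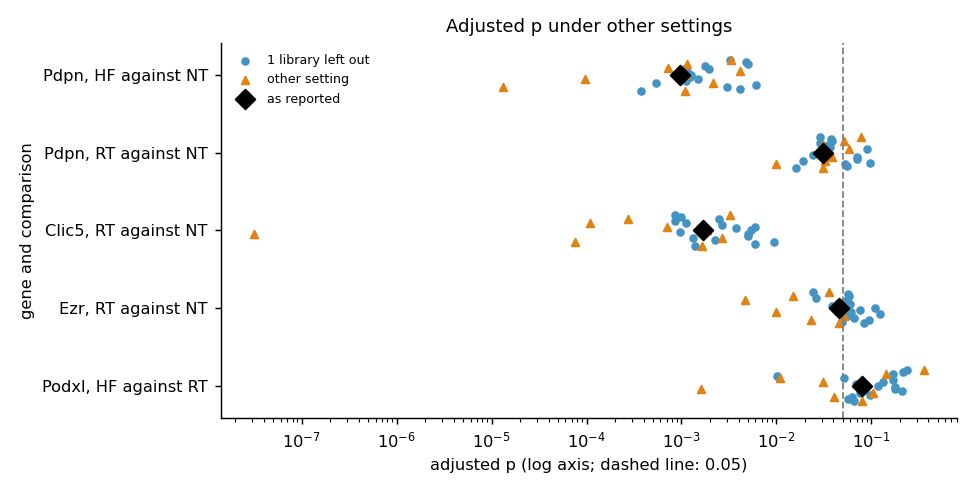
Adjusted p of 5 differences under the settings tried, on a log axis with a dashed line at 0.05: as reported (diamonds), with 1 library left out (circles) and under other settings (triangles). Pdpn for HF against NT and Clic5 for RT against NT stay left of the line in all 26 alternatives, while Pdpn and Ezr for RT against NT and Podxl for HF against RT fall on both sides.

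The genes around these 10 in the pathway were read from 9 lists with 84 tested genes. For HF against NT 1 of the 84 fell and 0 rose, for HF against RT edgeR called 0 (11 had an unadjusted p under 0.05, and DESeq2 and limma voom called 0 each), and for RT against NT 4 rose and 1 fell. Of all genes edgeR called 2.33% (HF over NT), 0.211% (HF over RT) and 3.97% (RT over NT), and 14.2%, 8.00% and 17.1% had an unadjusted p under 0.05. For HF against NT DESeq2 called 3 and limma voom 1 of the 84, where they called 3.71% and 2.20% of all genes. For RT against NT DESeq2 called 7 and limma voom 8 of the 84, where they called 5.49% and 4.13% of all genes. The gene that fell was Epb41l5, a FERM-domain protein of the band 4.1 family. It averaged 247 ± 5.19 CPM on HF, 254 ± 5.23 CPM on RT and 279 ± 18.6 CPM on NT surfaces (SD, n = 6, 6 and 5). Its log2 fold change was -0.18 ± 0.04 for HF against NT (edgeR adjusted p = 0.00361) and -0.14 ± 0.04 for RT against NT (edgeR adjusted p = 0.0192). The second call ended without NT 2, NT 3 or NT 4, where the edgeR adjusted p was 0.0583, 0.0525 and 0.0560 and the log2 fold change ran from -0.13 to -0.12.

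Of these lists, 4 genes rose on RT surfaces relative to NT. Mmp14, a membrane metalloproteinase listed with the partners of podoplanin, averaged 207 ± 2.95 CPM on RT and 188 ± 6.35 CPM on NT surfaces (log2 fold change 0.14 ± 0.03, edgeR adjusted p = 0.00577). Cobl, an actin nucleator of brush borders, averaged 242 ± 9.61 and 215 ± 12.1 CPM on RT and NT surfaces (0.17 ± 0.04, edgeR adjusted p = 0.0130). Both calls held in all 26 alternatives.

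Podxl2, which encodes endoglycan, a sialomucin of the podocalyxin family, averaged 26.0 ± 3.65 CPM on RT and 21.3 ± 2.19 CPM on NT surfaces (0.29 ± 0.08, edgeR adjusted p = 0.0321). Its call ended in 6 of 26 alternatives, which were the fit with 2 groups (edgeR adjusted p = 0.0711) and those without NT 1, NT 3, RT 3, RT 4 or RT 5 (0.0930, 0.0776, 0.0961, 0.0653 and 0.0787), where the log2 fold change ran from 0.24 to 0.29. Patj, a scaffold of the Crumbs polarity complex, averaged 4.63 ± 0.859 CPM on RT and 3.15 ± 0.456 CPM on NT surfaces (0.55 ± 0.15, edgeR adjusted p = 0.0321). Its call ended without NT 3, NT 4, NT 5, RT 1, RT 3 or RT 4 (edgeR adjusted p = 0.0602, 0.0937, 0.0588, 0.102, 0.0586 and 0.0589), where the log2 fold change ran from 0.45 to 0.57.

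By list, the genes called for RT against NT were 1 of 6 tested apical glycoproteins (Podxl2), 1 of 5 partners of podoplanin (Mmp14), 1 of 10 other FERM proteins (Epb41l5), 1 of 13 genes of the polarity complexes (Patj) and 1 of 11 genes of the microvillus core and tip (Cobl). Among 10 membrane partners of ezrin-family and NHERF proteins edgeR called 0, with 2 at an unadjusted p under 0.05 and 0 called by DESeq2 and by limma voom. Among 7 receptor phosphatases related to Ptpro edgeR called 0, with 3 at an unadjusted p under 0.05 and 1 called by each of the other tools. An unadjusted p under 0.05 was seen in 17.1% of all genes in this comparison.

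None of the 20 kinases, phosphatases, GTPases and lipid kinases that set the activity of ezrin-family proteins was called by edgeR, DESeq2 or limma voom in any comparison. In these 20 genes, which include Rhoa, Rock1 and Slk, an unadjusted p under 0.05 was seen for 3 genes in HF against NT, 1 in HF against RT and 3 in RT against NT, against 14.2%, 8.00% and 17.1% of all genes. The other tested members of the CLIC family numbered 2, with 0 called by the same 3 tools and 0 at an unadjusted p under 0.05. Clic1, the more abundant of them, averaged 246 ± 10.2, 252 ± 9.91 and 239 ± 19.2 CPM on HF, RT and NT surfaces.

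Genes whose level followed that of a called gene most closely over the 17 libraries were found among 10098 genes by the root mean square difference of centred log2 CPM. For Pdpn these were Sec62, Sptssa and Cav1, with differences of 0.0493, 0.0512 and 0.0516, where Pdpn itself varied by 0.0917 around its mean. For Ezr they were Pigt, Phldb1 and Fads3, at 0.0353, 0.0374 and 0.0400 against 0.0796 for Ezr itself. For Clic5 they were Gm4202, Inmt and Slc46a3, at 0.170, 0.171 and 0.180 against 0.243 for Clic5 itself, so no gene followed Clic5 as closely, relative to its own variation, as Pigt followed Ezr. Clic5 also had fewer counts per library than Ezr (268 to 479 against 6077 to 10259), and the part of counting error was not tested.

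Some markers of cell types moved with the surfaces beside these genes. For HF against NT, 5 of 6 tested parietal markers, 3 of 4 of mesangial cells, pericytes and smooth muscle and 2 of 3 mesothelial markers did not pass. In the same order these were 5 of 6, 2 of 4 and 2 of 3 for RT against NT, and 4 of 6, 4 of 4 and 3 of 3 for HF against RT. Of all genes, edgeR called 2.33%, 3.97% and 0.211% in HF against NT, RT against NT and HF against RT. The podocyte transcription factor gene Wt1 fell on HF surfaces (103 ± 5.22 and 115 ± 3.02 CPM on HF and NT, log2 fold change -0.16 ± 0.04, edgeR adjusted p = 0.0113) and on RT surfaces (96.9 ± 2.96 CPM, -0.24 ± 0.04 against NT, edgeR adjusted p = 6.16e-05). Actn4, which encodes the actin crosslinker alpha-actinin-4, rose on HF surfaces (671 ± 24.7 and 615 ± 13.8 CPM on HF and NT, 0.13 ± 0.03, edgeR adjusted p = 0.0285). Its call ended in the fit of 2 groups (0.0903) and without NT 3, NT 4, HF 1, HF 3 or HF 4 (edgeR adjusted p = 0.0928, 0.0699, 0.0850, 0.0740 and 0.0850). The 12 podocyte markers summed to 2014 to 2092, 1989 to 2059 and 1923 to 2031 CPM per library on HF, RT and NT surfaces. The smooth muscle actin gene Acta2 rose on both (364 ± 42.2, 363 ± 23.5 and 261 ± 36.7 CPM on HF, RT and NT), with edgeR adjusted p-values of 0.0171 and 0.0121, of which the first was 0.0749 in the fit of 2 groups. The 7 markers of mesangial cells, pericytes and smooth muscle summed to 809 to 883, 780 to 859 and 680 to 776 CPM per library on HF, RT and NT surfaces. Of the 7, 4 averaged under 1 CPM. Tagln, also of this list, rose on RT relative to NT surfaces (5.44 ± 0.345 and 4.09 ± 0.502 CPM, edgeR adjusted p = 0.0453). Its call ended in 16 of 26 alternatives. Pdgfrb, the most abundant of the 7, did not pass the test in any comparison and averaged 478, 457 and 478 CPM on HF, RT and NT surfaces, with SDs of 8.15 to 16.3 CPM. Of the parietal epithelial markers, Ncam1 fell to 264 ± 8.43 CPM on HF surfaces, against 294 ± 2.58 CPM on RT and 310.1 ± 7.65 CPM on NT surfaces (edgeR adjusted p = 0.0109 and 2.53e-05), Dkk3 fell on HF relative to RT surfaces (731 ± 25.4 and 827 ± 20.8 CPM, edgeR adjusted p = 0.0102) and Cldn1 fell on RT relative to NT surfaces (170.4 ± 10.3 and 197 ± 12.6 CPM, edgeR adjusted p = 0.0157). The 7 parietal markers summed to 4196 to 4505, 4361 to 4524 and 4202 to 4484 CPM per library, of which Akap12 alone averaged 2482, 2465 and 2385 CPM. Msln, a mesothelial marker, rose to 4.46 ± 1.80 CPM on HF and 4.34 ± 0.590 CPM on RT surfaces, against 1.48 ± 0.612 CPM on NT surfaces (edgeR adjusted p = 0.00316 and 0.00220). The 6 mesothelial markers summed to 12.1 to 19.4, 13.0 to 15.3 and 9.73 to 12.6 CPM per library, with Muc16 at 0. Of the 5 tested proximal tubule markers, 4 did not pass for RT against NT. The other, Hnf4a, averaged 0.823 ± 0.323 CPM on RT and 0.299 ± 0.207 CPM on NT surfaces (edgeR adjusted p = 0.0252). Its call did not hold in 7 of 25 alternatives, among which DESeq2 gave no adjusted p. The part of these markers in the differences of the 10 genes was not tested.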

How the data were processed

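RNA of E11 cells on HF, RT and NT surfaces was extracted with a PicoPure kit, selected by poly(T) beads and sequenced as non-directional libraries in 2 x 150 base paired reads, per the labels. The deposited values are raw read counts per Ensembl gene. The submitters' processing notes name CASAVA, HISAT2 2.0.5, featureCounts 1.5.0-p3 and the build GRCm39; their roles and settings are not given in the sources used here. Totals were 14913649 to 24072966 counts per library. Without strand, reads of overlapping genes on opposite strands cannot be told apart. Of all counts, 0.580% lay in genes without a symbol.

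Library totals were scaled by TMM, and the counts were tested with edgeR 4.0.16 (R 4.3.3) in 1 quasi-likelihood fit over the 3 groups, after its filter on low counts, two-sided, with Benjamini-Hochberg adjustment over 15196 genes and a threshold of 0.05. Standard errors were taken from the F statistic, as the size of the log2 fold change over its root. The common biological coefficient of variation was 0.0603. CPM are per 1000000 of the TMM-scaled total. Exon lengths, overlaps and chromosomes came from GENCODE M21, whose build differs from that of the counts. The only coordinates given are therefore those of the 3 promoter windows, in the build GRCm38.p6. The fit was tested on simulated data. Alternatives were relative log expression factors, DESeq2 1.42.0, limma 3.58.1 with voom, 2 other filters, fits of 2 groups, the replicate number as a block, libraries numbered 1 to 5 only and the length of the longest transcript for the ezrin-family shares (both chosen after seeing the data), and leaving out each library.

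All 10 genes are named. Of each pathway list, up to 2 called genes per comparison are named, and for each called gene the 3 closest among genes whose average log2 CPM was 3 or more. Of the marker lists, genes that bear on the label and genes whose call held in at least 25 of 26 alternatives are named. Actn4, Pdgfrb, Tagln and Hnf4a are named beside them, and this rule was chosen after their values were seen. The result for 1 podocyte marker is not reported here. The 10 genes and the lists were chosen with earlier results of these data known. Python 3.11.15, pandas 2.3.3 and numpy 2.4.6 were used for the tables.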

Additional observations from a re-analysis of the deposited data

Results flagged for a closer look

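Of 27 sets of values (9 genes in 3 groups), 1 held a library that stood apart from the rest of its group. The library RT 1 had the lowest Rdx level of the 6 RT libraries, 208 CPM, where the nearest other library had 214 CPM, a gap of 0.641 of the whole RT range. Chance gives such a library in about 1 in 20 groups. Without RT 1, Rdx for RT against NT kept its sign and did not pass the test.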

How the results depend on the processing

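Pdpn for HF against NT and Clic5 for RT against NT kept their direction and their call in all 26 alternatives. For HF against NT, 354 genes were called; the count was 564 with DESeq2, 597 with no filter on low counts and 200 with a fit of 2 groups, and it ran from 202 (without NT 3, and 203 without HF 4) to 604 (without NT 5) with 1 library left out. The number of the 10 genes called there ran from 1 to 3, the highest without NT 5, which added Rdx and Slc9a3r1. For HF against RT, 32 genes were called, against 84 with DESeq2, 148 with no filter, 113 with 2 groups, 15 with libraries numbered 1 to 5 only, and 14 (without RT 1 or RT 3) to 89 (without HF 3); it was 56 and 70 without NT 1 and NT 5, 16 without HF 5, and 18 without RT 2, HF 1, HF 4 or HF 6. Of the 10 genes, 1 was called with DESeq2, 2 with no filter and 1 with 2 groups, and 0 to 1 with 1 library left out. For RT against NT, 603 genes were called, and 365 (without NT 3) to 806 (without NT 5) with 1 library left out, with 1 (without NT 3, NT 4, RT 1, RT 2 or RT 6) to 3 of the 10 genes. The cause of these shifts was not tested.

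The replicate numbers are shared by the groups, and the deviations of same-numbered libraries were at most weakly correlated (-0.0111 to 0.193 over 16 pairs, 2 of them over 0.1). In 7 of the 16 pairs, the library of the first group had its own number as the closest match in the second group. How many pairs would match by chance was not computed. The number held 73.8% of the within-group variance of Clic5, against a median of 40.1% over all tested genes. With the replicate number as a block, the calls were 637 (HF over NT), 125 (HF over RT) and 995 (RT over NT), with 2, 1 and 4 of the 10 genes: Slc9a3r1 joined Pdpn (edgeR adjusted p = 0.0473), and Podxl was called between HF and RT (0.0108) and between RT and NT (0.0211). With the block on numbers 1 to 5 these 3 did not pass (0.0607, 0.143 and 0.0515), HF against NT gave 594 calls, Pdpn for RT against NT had an edgeR adjusted p of 0.0519 and the marker Acta2 for RT against NT 0.0523. With those libraries and no block Pdpn had 0.0781.

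Signs turned only for differences that had not passed the test. The log2 fold change of Slc9a3r2 for HF against RT was 0.02 with libraries numbered 1 to 5, with (0.0170) and without (0.0171) the block. With 1 library left out, it ran from -0.0281 to 0.00357 there, from -0.0430 to 0.0110 for HF over NT and from -0.0316 to 0.0224 for RT over NT. Likewise Clic4 ran from -0.00204 to 0.0546 for HF over NT, Rdx from -0.0212 to 0.00545 for HF over RT and Msn from -0.0226 to 0.0255 for RT over NT.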
